A study of Saccharomyces cerevisiae with 12 samples.

Results

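The response of budding yeast to glucose withdrawal was compared between cells that lack mitochondrial DNA (ρ0) and cells that carry it (ρ+). The comparison takes in 12 of the 12 arrays of the series, 3 biological replicates in each of 4 groups: ρ0 cells without glucose, ρ0 cells in glucose, ρ+ cells without glucose and ρ+ cells in glucose. Groups were taken from the sample titles, and no array was chosen or left out by a measured value. All cultures were grown at 22 °C to early log phase in CM medium with 2% glucose. One portion of each culture was harvested at that point. The rest was spun down, washed once and shaken for 4 h in CM without added glucose. Every culture without glucose had therefore also been washed and shaken for 4 h, and no culture in glucose had, so that these steps and the loss of glucose cannot be told apart. The labels name the strains only as ρ+ and ρ0, and their background and the way mtDNA was lost were not used here.

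The yeast mitochondrial genome encodes a few subunits of the cytochrome bc1 complex (complex III), of cytochrome c oxidase (complex IV) and of the ATP synthase. Nuclear genes supply all their other subunits, so ρ0 cells cannot respire and live by fermentation. In wild-type yeast, glucose represses the genes for respiration and for other carbon sources, and its loss activates the Snf1 kinase, which inactivates the repressor Mig1 and frees activators such as Adr1, Cat8 and the Hap complex.

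RNA was extracted from equal numbers of cells, enriched for poly(A) RNA and hybridised as biotin-labelled cRNA to 1-colour Affymetrix arrays. The deposited signals had been scaled per array, so a value is a level relative to the other RNAs of that array and not an amount per cell. For 5361 of the 5656 genes with a probe set of their own, the mean signal of at least 1 group was above 5.82, the level taken here as detected, and these genes were tested. The labels held on OLI1, a mitochondrially encoded ATP synthase subunit, whose signal was 0.320 ± 0.0797 without glucose and 0.285 ± 0.131 in glucose in ρ0 cells, against 128 ± 15.2 without glucose and 128 ± 29.3 in glucose in ρ+ cells (mean ± SD, n = 3 each). A probe set of COX1, also encoded by mtDNA, was above detection on 5 arrays, all of ρ+ cells. A second OLI1 probe set and nearly all others of mtDNA genes were below detection on every array, so they do not mark the strains. The spiked controls CreX-3 and BioDn-3 were lowest on 2 arrays, ρ0 without glucose replicate 1 and ρ0 in glucose replicate 2. CreX-3 gave 509.2 and 309.3 on them, against 624 to 1006 on the others, while CreX-5 and BioDn-5 did not set both arrays apart. Without both arrays the counts below were 282 genes lower and 84 higher, including 243 of the 287 and 46 of the 84 named next.

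For each gene, the response of ρ0 cells (log2 signal without glucose minus log2 signal in glucose) was set against that of ρ+ cells, and the difference, ρ0 minus ρ+, was tested with limma over all genes. The response was lower in ρ0 cells than in ρ+ cells for 287 genes (5.35% of those tested) and higher for 84 (1.57%), at an adjusted p under 0.05, 371 genes or 6.92% in all. These shares are the background for the counts in gene lists below. The difference uses the same arrays as the 2 withdrawal responses, which are therefore given beside it as values. Of the 287 genes with the lower response, 177 rose in ρ+ cells and did not pass the test in ρ0 cells, 23 rose in both strains, and 30 rose in ρ+ cells and fell in ρ0 cells. Another 46 fell in ρ0 cells only, 1 fell in both strains and 10 passed in neither strain. The 84 genes with the higher response were mostly falls of ρ+ cells: 65 fell in ρ+ cells only, 11 rose in ρ0 cells only, 3 fell in both strains, 2 rose in ρ0 cells and fell in ρ+ cells, and 3 passed in neither.

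The size of the differences was unequal as well. The median difference was −1.43 over the 287 genes, 1.03 over the 84 and 0.09 over all genes tested, on the log2 scale used throughout. Between the strains, 1102 genes (20.6%) were higher and 504 (9.40%) lower in ρ0 than in ρ+ cells without glucose (30.0% in either direction), and 268 (5%) were higher and 78 (1.45%) lower in glucose (6.45%). Seen this way, 227 of the 287 genes were lower in ρ0 than in ρ+ cells without glucose and did not pass the test between strains in glucose, 25 were higher in ρ0 cells in glucose only, and 22 were both. Because RNA came from whole cultures, a change within every cell and a change in the share of cells that express a gene cannot be told apart. The median standard error of a difference was 0.30. The call held without each single array for 185 of the 287 and for 27 of the 84, so the higher count rests more on single arrays. It was 32 without ρ+ in glucose replicate 2 and 134 without ρ0 in glucose replicate 2.

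**Figure D1:**
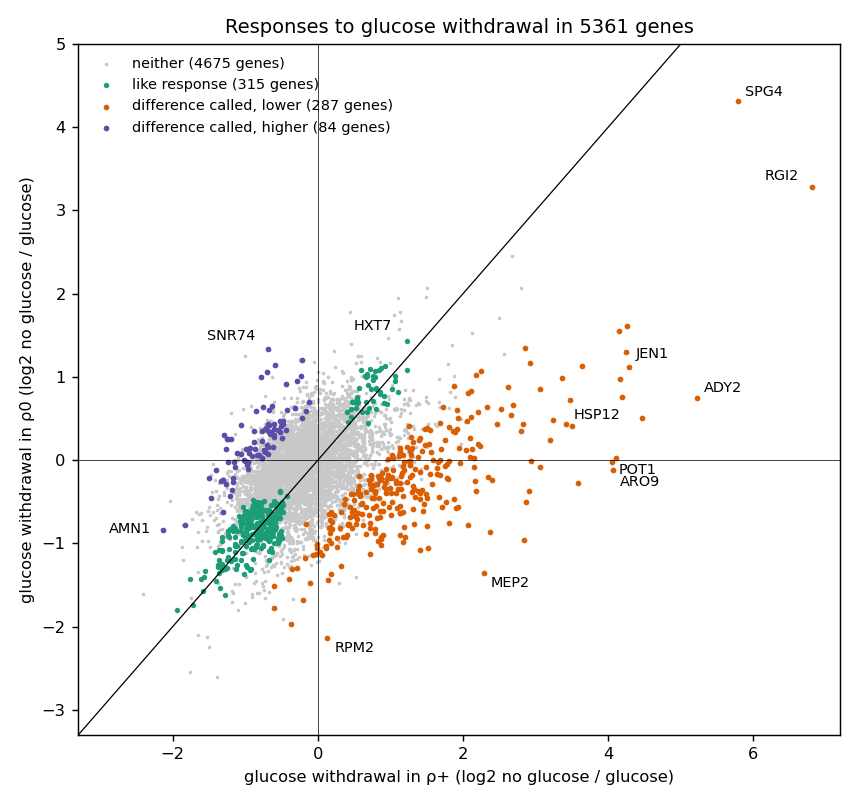
Log2 response to glucose withdrawal of 5361 genes in ρ0 cells (y axis) against the response in ρ+ cells (x axis), with 3 arrays per group. Orange points are the 287 genes with a lower response in ρ0 cells, purple points the 84 with a higher one, green points the 315 with a like response in both strains and grey points the others. Most orange points lie to the right of 0 and near 0 on the y axis.

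Of the starvation response of ρ+ cells, rises and falls are described in turn. Withdrawal raised 246 genes (4.59%) in ρ0 cells and 561 (10.5%) in ρ+ cells, and lowered 666 (12.4%) in ρ0 cells and 1193 (22.3%) in ρ+ cells. The balance of rises and falls depends on the scaling: after median centring 444 rose and 382 fell in ρ0 cells and 807 rose and 548 fell in ρ+ cells, and with poly-A scaling 61 rose and 413 fell in ρ0 cells and 439 rose and 287 fell in ρ+ cells. The 101 genes raised in both strains were 41.1% of the ρ0 rises and 18% of the ρ+ rises. The 364 genes lowered in both were 54.7% of the ρ0 falls and 30.5% of the ρ+ falls. Among the 561 rises of ρ+ cells, 230 (41%) had a called difference, 118 had a difference whose 95% interval lay within −1 and 1, and 213 had neither, which leaves their dependence on mtDNA unresolved at this replication. Among the 1193 falls, 71 (5.95%) had a called difference, 524 an interval within −1 and 1, and 598 neither. Over all genes tested, 6.92% had a called difference. Both sets were selected by the ρ+ response, which is itself a term of the difference. The selection alone favours a lower difference among rises and a higher one among falls. The shares are therefore no estimate of how much of the response depends on mtDNA. The counts in ρ0 cells were 471 in either direction without ρ0 in glucose replicate 3, 514 without ρ0 without glucose replicate 1 and 603 without ρ0 without glucose replicate 2, against 912 (17.0%) with all arrays. In ρ+ cells the count was 1754 (32.7%), and 1154 without ρ+ in glucose replicate 2.

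Several of the largest differences were in genes for using carbon sources other than glucose. ADY2, an acetate and ammonium transporter of the plasma membrane, gave signals of 10.03, 11.1 and 20.6 without glucose and 5.74, 6.29 and 10.5 in glucose in ρ0 cells. In ρ+ cells the signals were 314, 387 and 274 without glucose and 8.71, 7.22 and 5.78 in glucose. The ρ+ arrays without glucose lay far above the other 9, among which the ρ0 groups overlapped. The response of ADY2 was 0.75 in ρ0 cells, which did not pass the test (adjusted p = 0.0602), and 5.22 in ρ+ cells, a difference of −4.48 ± 0.37 (SE, adjusted p = 2.7e-06). JEN1, the lactate and pyruvate permease, gave 27.8, 26.3 and 37.8 without glucose and 15.1, 11.7 and 12.8 in glucose in ρ0 cells, and 255, 244 and 341 without glucose and 14.7, 12.6 and 11.3 in glucose in ρ+ cells. Unlike ADY2 it rose in both strains, by 1.12 in ρ0 cells and by 4.29 in ρ+ cells, and the ρ0 arrays without glucose lay between the ρ+ arrays without glucose and all those in glucose. The difference was −3.17 ± 0.27 (adjusted p = 3.4e-06). The related transporter gene ATO2 likewise rose by 1.61 in ρ0 cells and 4.26 in ρ+ cells, with a difference of −2.65 ± 0.24 (adjusted p = 5.0e-06). Of the 9 tested genes for organic acid and ammonium transport, 4 had a lower response in ρ0 cells and none a higher one, and the median difference was −1.53. Relative to all genes that median was −1.62, and −0.50 with a pseudocount of 16, under which the 4 calls stood.

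Fatty acid oxidation, which in yeast takes place in peroxisomes, and the enzymes that turn acetate into sugar also had lower responses in ρ0 cells. POT1, the peroxisomal thiolase, gave 15.5, 7.07 and 6.94 without glucose and 7.53, 10.1 and 10.7 in glucose in ρ0 cells, and 159, 179 and 173 without glucose and 7.93, 9.95 and 8.79 in glucose in ρ+ cells. The ρ+ arrays without glucose were the 3 highest, and the other groups overlapped. The difference was −4.07 ± 0.34 (adjusted p = 2.9e-06), and that of CTA1, the peroxisomal catalase, was −4.08 ± 0.29 (adjusted p = 5.9e-07). CRC1, the mitochondrial carnitine carrier, rose by 0.73 in ρ0 cells and 3.48 in ρ+ cells, a difference of −2.75 ± 0.30 (adjusted p = 5.5e-05). In all, 7 of 14 genes for peroxisomal fatty acid oxidation had a lower response in ρ0 cells, a count that fell to 4 without ρ+ without glucose replicate 1 or 3 and without ρ+ in glucose replicate 1 or 2. For genes of the glyoxylate cycle and gluconeogenesis it was 9 of 19, with 3 rising in ρ0 cells and 14 in ρ+ cells and a median difference of −1.06. ICL1, isocitrate lyase, averaged 13.1 ± 2.14 without glucose and 20 ± 1.92 in glucose in ρ0 cells, and 54.8 ± 4.55 without glucose and 15.9 ± 2.87 in glucose in ρ+ cells (SD, n = 3 each). It fell by 0.56 in ρ0 cells (adjusted p = 0.0444) and rose by 1.71 in ρ+ cells (adjusted p = 7.6e-06). The fall was near the threshold. As deposited, 1 gene of this list was called lower in ρ0 cells, and 0 were with quantile normalisation, median centring or poly-A scaling. The malate synthase gene MLS1 (−1.96) and the mitochondrial aldehyde dehydrogenase gene ALD4 (−1.90) also had a lower response in ρ0 cells. Of 24 peroxisome biogenesis genes, 0 had a lower response and 1 a higher one, which is near the shares over all genes, and the median difference was −0.13.

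**Figure D2:**
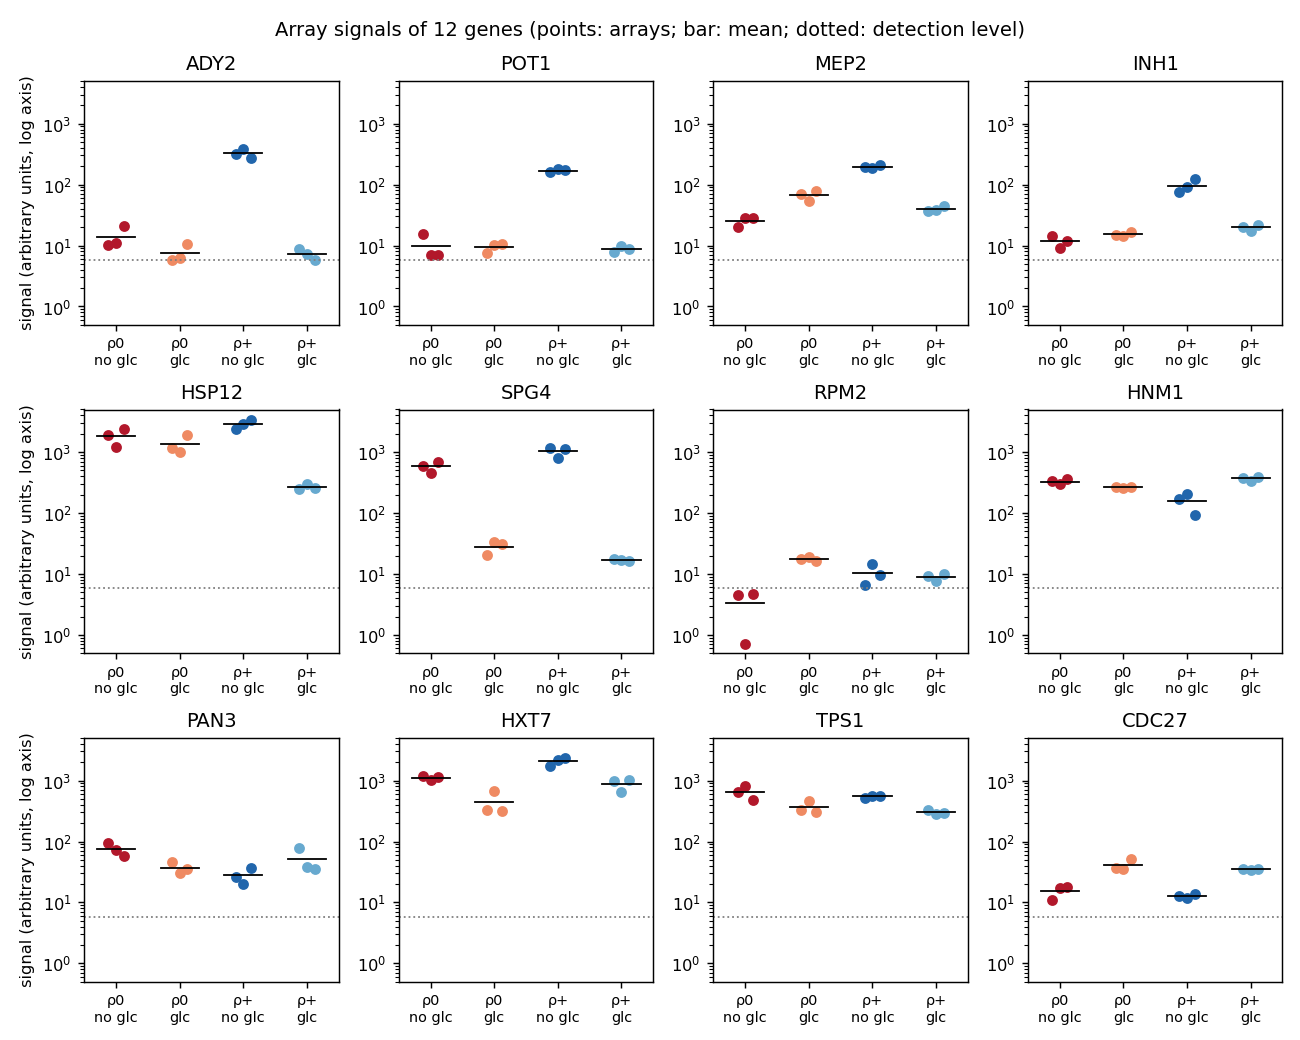
Signal on each of the 12 arrays for 12 genes, on a log axis, with the groups from left to right ρ0 without glucose, ρ0 in glucose, ρ+ without glucose and ρ+ in glucose; each point is an array and the dotted line is the detection level of 5.82. ADY2, POT1, MEP2, INH1 and HSP12 are highest in ρ+ cells without glucose, RPM2 is lowest in ρ0 cells without glucose, and HXT7, TPS1 and CDC27 move alike in both strains. RPM2, TPS1 and CDC27 were picked as examples after their values were seen.

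Sugar genes gave a mixed picture. Invertase, SUC2, averaged 73.99 ± 15 without glucose and 36.3 ± 4.03 in glucose in ρ0 cells, and 416 ± 25.02 without glucose and 39.3 ± 3.73 in glucose in ρ+ cells. It rose in both strains, less in ρ0 cells, with a difference of −2.38 ± 0.25 (adjusted p = 3.5e-05). Its probe set is marked by its name as shared with similar genes. HXK1, a hexokinase repressed by glucose, gave a response of 0.47 in ρ0 cells, which did not pass the test, and rose by 2.05 in ρ+ cells (difference −1.58 ± 0.26, adjusted p = 0.00152). In contrast, the hexose transporter HXT2 rose by 2.06 in ρ0 cells and 2.80 in ρ+ cells, and the difference of −0.74 ± 0.25 did not pass the test (adjusted p = 0.0907, 95% interval −1.27 to −0.20). Of 18 genes for hexose transport and sugar use, 4 had a lower response in ρ0 cells, and 2 did without ρ+ without glucose replicate 3 or ρ+ in glucose replicate 2. Glycolysis and fermentation genes gave 0 of 19 in either direction, with 17 intervals within −1 and 1.

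Among 28 tested carbon source regulators, 2 had a lower response in ρ0 cells (7.14%, near the 5.35% of all genes) and none a higher one. They were USV1, a zinc finger factor of growth on non-fermentable carbon (−2.57 ± 0.52, adjusted p = 0.00634), and MIG1, the glucose repressor, which was below detection on all ρ0 arrays without glucose (−1.68 ± 0.42, adjusted p = 0.0239). The call of MIG1 was lost without ρ+ without glucose replicate 3 (adjusted p = 0.0716) and without ρ+ in glucose replicate 1 or 2 (0.0663 and 0.0616). SNF1, the kinase that relieves repression, gave a difference of 0.08 with a 95% interval of −0.49 to 0.65, and ADR1, the activator of fatty acid and ethanol use, one of 0.00 with −0.77 to 0.78. HAP4, the regulated subunit of the Hap complex, gave −0.58, which did not pass the test (adjusted p = 0.383, 95% interval −1.38 to 0.22). The gene for Cat8 was not above the detection level in any group and was not tested.

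Many nuclear genes for the respiratory chain differed in response, and none of the 16 genes of the TCA cycle list passed the test. KGD4, a subunit of 2-oxoglutarate dehydrogenase outside that list, was called lower, and its call held in all 25 alternatives. INH1, the inhibitor of ATP hydrolysis by the ATP synthase, gave 14.2, 8.98 and 11.9 without glucose and 15.03, 14.4 and 16.9 in glucose in ρ0 cells, against 75.5, 90.5 and 122 without glucose and 20.5, 17.4 and 21.5 in glucose in ρ+ cells. The ρ+ arrays without glucose were above all others, and the ρ0 arrays without glucose lay just below those in glucose. The difference was −2.55 ± 0.29 (adjusted p = 5.9e-05). COX26, a small subunit of complex IV, gave 28.9, 21.5 and 37.5 without glucose and 30.8, 58.7 and 43.9 in glucose in ρ0 cells, and 173, 189 and 193 without glucose and 52.8, 38.4 and 51.7 in glucose in ρ+ cells. Again the ρ+ arrays without glucose stood above the other 9, with a difference of −2.50 ± 0.33 (adjusted p = 2.2e-04). The hypoxic isoform of subunit 5 of the same complex, COX5B, averaged 81.7 ± 26.8 without glucose and 164 ± 35.9 in glucose in ρ0 cells, and 306 ± 5.75 without glucose and 169 ± 30.7 in glucose in ρ+ cells. It fell in ρ0 cells (−1.02) and rose in ρ+ cells (0.87). ATP17, a subunit of the membrane part of the ATP synthase, also fell in ρ0 cells (−0.63) and rose in ρ+ cells (1.17).

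By complex, 6 of 9 nuclear genes of complex III had a lower response in ρ0 cells, 6 of 10 of complex IV, 5 of 17 of the ATP synthase, and 2 of 10 for NADH dehydrogenases and cytochrome c. No gene of these lists had a higher one. The 5 of the ATP synthase were 9 with a replicate block and between 5 and 9 over all alternatives. Over the same alternatives the count was between 4 and 7 for complex III and between 5 and 7 for complex IV. It was 2 or 3 for NADH dehydrogenases and cytochrome c. The median difference was −1.33, −1.05, −0.83 and −0.86 in the same order, against 0.09 over all genes. Of the 9 genes of complex III, 0 passed the test of withdrawal in ρ0 cells, while 7 rose in ρ+ cells. Examples of complex III were QCR6, the acidic hinge subunit (−1.78 ± 0.29, adjusted p = 0.00139), and QCR10 (−1.70 ± 0.26, adjusted p = 8.2e-04). NDI1, the internal NADH dehydrogenase that feeds electrons to coenzyme Q in place of a complex I, gave −1.89 ± 0.23 (adjusted p = 1.2e-04), and CYC7, the minor isoform of cytochrome c, −1.66 ± 0.37 (adjusted p = 0.0126). The catalytic ATP synthase subunit ATP1 had a difference of the opposite sign, 0.78 ± 0.28, which did not pass the test (adjusted p = 0.109); it was picked after its value was seen. Of the 16 listed TCA cycle genes, 0 were called in either direction, where the share over all genes was 6.92%. Their differences ran from −0.79 to 0.61, and 11 had an interval within −1 and 1. Citrate synthase, CIT1, gave 0.05 (95% interval −0.46 to 0.56), aconitase, ACO1, 0.24 (−0.20 to 0.69), and a subunit of isocitrate dehydrogenase, IDH2, 0.26 (−0.11 to 0.64). The median difference of the TCA list was 0.08, and −0.18 with arrays scaled to spiked poly-A controls, so its sign depends on the scaling.

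**Figure D3:**
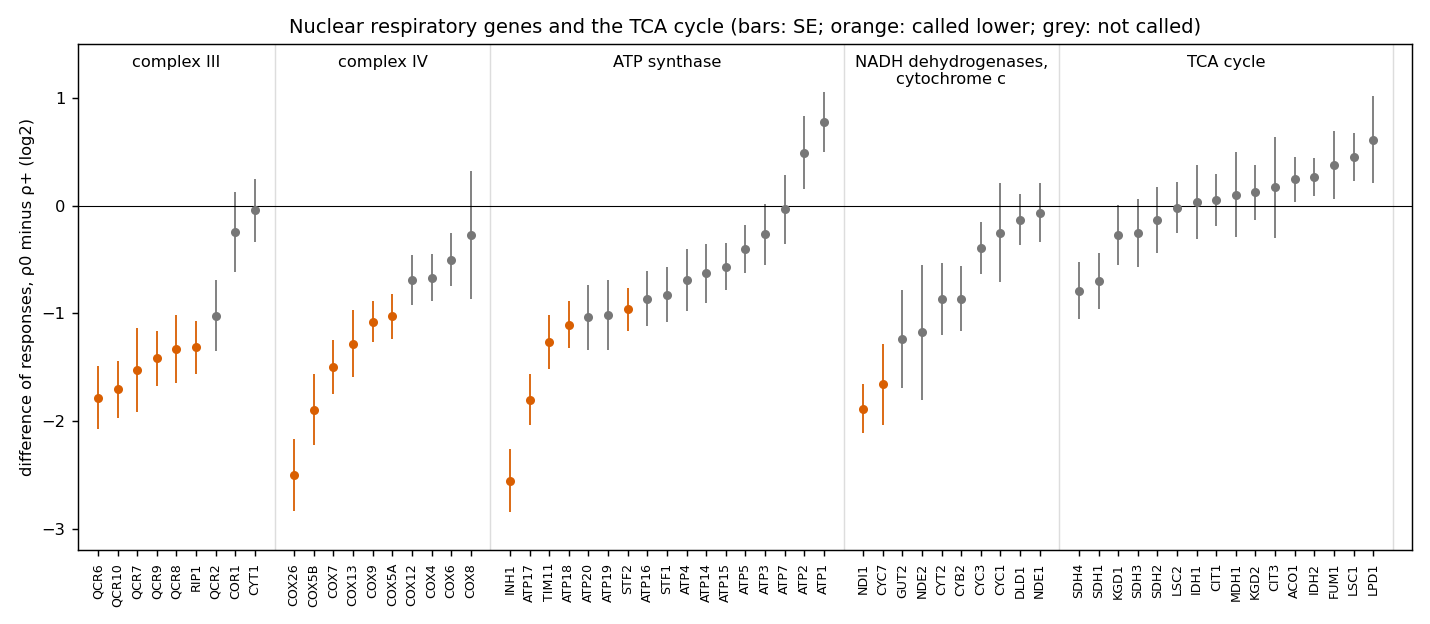
Difference of the responses, ρ0 minus ρ+, on the log2 scale (point, orange where called lower and grey where not called) with its standard error (bar). Shown are the tested genes of the lists of complex III, complex IV, the ATP synthase, the NADH dehydrogenases with cytochrome c, and the TCA cycle. Points of complexes III and IV lie mostly below −1, and those of the TCA cycle lie on both sides of 0, from −0.79 to 0.61.

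Stress genes differed by different routes. HSP12, a membrane chaperone and a classic target of the general stress factors Msn2 and Msn4, gave 1908, 1199 and 2366 without glucose and 1158, 1005 and 1889.7 in glucose in ρ0 cells. The ρ+ signals were 2430.1, 2915 and 3358 without glucose and 244, 303 and 258 in glucose. Here the ρ+ arrays in glucose were the 3 lowest, and the ρ0 groups overlapped. In glucose HSP12 was 4.84-fold higher in ρ0 than in ρ+ cells (adjusted p = 4.4e-05), and the difference of the responses was −2.99 ± 0.35 (adjusted p = 8.2e-05). SSA4, a stress-induced Hsp70, did not differ past the threshold between ρ0 and ρ+ cells in glucose (−0.10, adjusted p = 0.805). It averaged 53.5 ± 10.05 without glucose and 56.3 ± 8.94 in glucose in ρ0 cells, and 514 ± 77.1 without glucose and 60.1 ± 6.66 in glucose in ρ+ cells. Its difference was −3.14 ± 0.27 (adjusted p = 3.4e-06). The small heat shock proteins HSP42 (−2.34) and HSP26 (−2.12) also rose in ρ+ cells only. BTN2, a sorting factor for misfolded proteins, rose by 0.86 in ρ0 cells and 3.06 in ρ+ cells.

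In all, 9 of 32 general stress genes (28.1%) had a lower response in ρ0 cells and 6 of 23 cytosolic chaperone genes (26.1%) did, against 5.35% of all genes. None was higher, and the median differences were −0.70 and −0.43. In ρ0 cells 1 of the stress genes and 2 of the chaperone genes rose, against 18 and 11 in ρ+ cells. Of 31 autophagy genes, 7 (22.6%) had a lower response in ρ0 cells. Among them were ATG5, part of the conjugation system for the autophagosome membrane (−1.31 ± 0.23, adjusted p = 0.00194), and ATG39, a receptor for autophagy of the nucleus that was below detection in ρ+ cells in glucose (−1.48 ± 0.31, adjusted p = 0.00832). Trehalose and glycogen genes gave 0 of 21 in either direction, and 2 lower with poly-A scaling. Only 8 of the 21 had an interval within −1 and 1, so most were unresolved. Proteasome genes gave 0 of 33, with 24 intervals within −1 and 1.

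Among genes known for the stationary phase and respiratory growth, SPG4 and RGI2 rose in both strains, less in ρ0 cells. SPG4, required for survival at high temperature in the stationary phase, gave 593, 459 and 697 without glucose and 20.4, 33.5 and 30.6 in glucose in ρ0 cells, and 1182, 809 and 1127 without glucose and 17.6, 17.01 and 16.6 in glucose in ρ+ cells. Arrays without glucose lay far above those in glucose in both strains, and the 2 strains did not overlap without glucose. The rise was 19.8-fold in ρ0 cells and 55.4-fold in ρ+ cells, a difference of −1.48 ± 0.30 (adjusted p = 0.00701). RGI2, a small protein needed for energy metabolism under respiratory conditions, gave 49.6, 29.1 and 43.3 without glucose and 1.24, 2.78 and 4.97 in glucose in ρ0 cells, and 302, 345 and 349 without glucose and 2.22, 1.08 and 1.27 in glucose in ρ+ cells. As it was below detection on all arrays in glucose, its rise was at least 6.82-fold in ρ0 cells and at least 56.9-fold in ρ+ cells, where the bound sets undetected signals to the detection level. With signals floored at that level the difference was −3.06 (adjusted p = 8.0e-06). MPC3, the mitochondrial pyruvate carrier subunit used on respiratory carbon sources, gave 0.48 in ρ0 cells, which did not pass the test, and rose by 3.23 in ρ+ cells (difference −2.75 ± 0.32, adjusted p = 7.7e-05). Of the 16 genes of this list, 5 had a lower response in ρ0 cells, 3 rose in ρ0 cells and 9 rose in ρ+ cells.

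Nitrogen and amino acid genes were also among those with a lower response in ρ0 cells. MEP2, the high-affinity ammonium permease and sensor, gave 20.3, 28.2 and 28.2 without glucose and 69.4, 54.5 and 79.1 in glucose in ρ0 cells, against 195, 185 and 212 without glucose and 36.5, 37.8 and 43.7 in glucose in ρ+ cells. The lowest 3 arrays were those of ρ0 cells without glucose and the highest 3 those of ρ+ cells without glucose, and no 2 groups overlapped. Withdrawal lowered MEP2 in ρ0 cells (−1.35, adjusted p = 2.8e-04) and raised it in ρ+ cells (2.29, adjusted p = 3.3e-07), a difference of −3.64 ± 0.26 (adjusted p = 5.9e-07). ARO9, an aminotransferase that starts the breakdown of aromatic amino acids, gave 12.01, 11.1 and 9.52 without glucose and 8.87, 12.4 and 15 in glucose in ρ0 cells, and 134, 141 and 146 without glucose and 5.96, 7.65 and 7.54 in glucose in ρ+ cells. It was above its other values only in ρ+ cells without glucose, with a difference of −4.17 ± 0.27 (adjusted p = 4.8e-07). PUT1, proline oxidase of the mitochondrion, gave −3.08 ± 0.32 (adjusted p = 2.5e-05), GAP1, the general amino acid permease, −1.83 ± 0.31 (adjusted p = 0.00162), and BAT2, the cytosolic branched-chain aminotransferase, −1.56 ± 0.28 (adjusted p = 0.00298). In counts, 6 of 36 genes of nitrogen catabolite control and amino acid permeases (16.7%) had a lower response in ρ0 cells. So did 5 of 19 for breakdown of aromatic and branched amino acids (26.3%), against 5.35% of all genes. None of either list had a higher one. The median difference was −0.27 and 0.09 in that order, against 0.09 over all genes. The 5 calls of the breakdown list therefore do not stand for a shift of that list. The sulfate and methionine list went both ways, with 4 of 23 lower and 2 higher, and the 2 were 0 or 1 without ρ0 without glucose replicate 1 or 2, ρ0 in glucose replicate 1 or 3, or any single ρ+ array other than ρ+ without glucose replicate 1.

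A further group was lower because it fell in ρ0 cells. RPM2, the protein subunit of mitochondrial RNase P, which trims tRNAs encoded by mtDNA, gave 4.58, 0.704 and 4.73 without glucose and 17.8, 19.1 and 16.3 in glucose in ρ0 cells, against 6.65, 14.7 and 9.71 without glucose and 9.38, 7.67 and 9.83 in glucose in ρ+ cells; it was picked after its values were seen. All 3 ρ0 arrays without glucose were below detection, and all 3 ρ0 arrays in glucose were above every ρ+ array. The fall in ρ0 cells was at least 3.04-fold, the ρ+ response of 0.13 did not pass the test, and the difference was −2.26 ± 0.49 (adjusted p = 0.0103; −1.74, adjusted p = 0.00422, with floored signals). MIC12 and MIC27, subunits of the MICOS complex that shapes the inner mitochondrial membrane, fell in ρ0 cells by 1.43 and 1.37, and their ρ+ responses of −0.40 and 0.18 did not pass the test. MIC12 averaged 153 ± 15.02 without glucose and 417 ± 42.6 in glucose in ρ0 cells, and 189.6 ± 23.8 without glucose and 250.3 ± 15.4 in glucose in ρ+ cells. The differences were −1.03 ± 0.23 (adjusted p = 0.0106) and −1.55 ± 0.24 (adjusted p = 8.6e-04). TIM9, a chaperone of the space between the mitochondrial membranes, fell by 1.12 in ρ0 cells and gave −0.03 in ρ+ cells (difference −1.10 ± 0.24, adjusted p = 0.0116).

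Part of the genes that build mitochondria fell in each strain. In the lists used here, the share with a lower response in ρ0 cells was 7.5% of assembly factors and 8.11% of mitochondrial ribosomal proteins, near the 5.35% of all genes. Of 40 assembly factors of the respiratory chain, 18 fell in ρ0 cells and 11 in ρ+ cells, and 3 had a lower response in ρ0 cells. That count of 3 was 5 without ρ0 without glucose replicate 3 or ρ0 in glucose replicate 2, and 1 without ρ0 in glucose replicate 3, ρ+ without glucose replicate 3 or ρ+ in glucose replicate 2. One of the 3 was COX19, a copper-binding factor of the intermembrane space, which rose in ρ+ cells by 2.11 (difference −1.60 ± 0.31, adjusted p = 0.00473). Outside the list, the assembly factors COA2, COA4, SDH5, SDH6 and SDH8 also had a lower response in ρ0 cells, held in all 25 alternatives. The share of the list therefore does not stand for all assembly factors. Of 74 genes for mitochondrial ribosomal proteins, 37 fell in ρ0 cells and 27 in ρ+ cells, 15 of them alike, and 6 had a lower and 1 a higher response in ρ0 cells. The 6 were between 1 and 3 without ρ0 without glucose replicate 1 or 2, ρ0 in glucose replicate 3, ρ+ without glucose replicate 1 or 3, or ρ+ in glucose replicate 1 or 2. With arrays scaled to the poly-A controls, 32 of the 74 fell in ρ0 cells and 4 in ρ+ cells, and the lower count was 1.

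With signals as deposited, the response went opposite ways in 32 genes. In 30 of them withdrawal lowered the gene in ρ0 cells and raised it in ρ+ cells, among them MEP2, ICL1, COX5B, ATP17 and ATP18. MRS4, a mitochondrial iron carrier, averaged 67.3 ± 16.5 without glucose and 116 ± 21.5 in glucose in ρ0 cells, and 331 ± 6.88 without glucose and 116 ± 8.10 in glucose in ρ+ cells. Its difference was −2.29 ± 0.28 (adjusted p = 1.2e-04). RTG1 is a factor of the retrograde pathway by which mitochondria signal to the nucleus. It fell in ρ0 cells (−0.97, adjusted p = 0.0416) and rose in ρ+ cells (0.83, adjusted p = 0.05), at signals near the detection level. The retrograde list had 1 fall in ρ0 cells as deposited, and 0 with quantile normalisation, median centring or poly-A scaling. The difference of RTG1 was −1.80 ± 0.43 (adjusted p = 0.0195). It lost its call without ρ+ without glucose replicate 3 (adjusted p = 0.0604) and reached the threshold of 0.05 without ρ+ in glucose replicate 1. The remaining 2 genes, SNR74 and SNR128, code for small nucleolar RNAs and rose in ρ0 cells and fell in ρ+ cells.

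The 15 lowest differences included 8 further genes. FDH1, a formate dehydrogenase whose probe set is shared with similar genes, PRR2, a protein kinase, and ARO10, a decarboxylase of aromatic amino acid breakdown, were below detection on all arrays but those of ρ+ cells without glucose. They rose in ρ+ cells by at least 15.3-fold, 3.87-fold and 4.42-fold, and their differences with floored signals were −3.94 (adjusted p = 9.9e-07), −1.95 (3.2e-04) and −2.15 (1.6e-05). CSR2, an arrestin-related gene with a shared probe set, rose by at least 10.7-fold in ρ+ cells (floored difference −3.19, adjusted p = 1.8e-05). Its call was lost when probe sets not marked as shared were taken first (limma difference −1.19, adjusted p = 0.26). The difference was −3.79 ± 0.54 for HAB1, −3.38 ± 0.28 for YGR161W-C, −3.23 ± 0.43 for MET2, the first enzyme from homoserine towards methionine, and −3.19 ± 0.42 for YNL194C, a membrane protein. YNL194C rose in ρ0 cells too, by 0.97, against 4.16 in ρ+ cells.

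Genes with a higher response in ρ0 cells were mainly genes that fell in ρ+ cells. HNM1, the choline transporter, gave 329.6, 296 and 358 without glucose and 264, 258 and 272 in glucose in ρ0 cells, against 172, 209 and 92.3 without glucose and 376, 335 and 396 in glucose in ρ+ cells. The ρ+ arrays without glucose were the 3 lowest. The response was 0.30 in ρ0 cells, which did not pass the test, and −1.29 in ρ+ cells, a difference of 1.60 ± 0.33 (adjusted p = 0.00679). AMN1, an inhibitor of mitotic exit and a factor of daughter cell separation, fell in both strains, by 0.84 in ρ0 cells and by 2.13 in ρ+ cells (difference 1.29 ± 0.25, adjusted p = 0.0045). PAN3, a subunit of a poly(A) nuclease, gave 93.9, 73.3 and 58.9 without glucose and 45.3, 30.2 and 35.2 in glucose in ρ0 cells, and 26.6, 20.1 and 36.97 without glucose and 79.4, 37.9 and 35.3 in glucose in ρ+ cells. Its ρ0 arrays without glucose lay above those in glucose, with the ρ+ arrays spread across both. It rose in ρ0 cells (1.00), while the ρ+ response of −0.78 did not pass the test (difference 1.77 ± 0.41, adjusted p = 0.0154). STE12, the transcription factor of the mating pathway, gave 1.44 ± 0.29 (adjusted p = 0.00545), and SUI2, a subunit of translation initiation factor eIF2, 1.35 ± 0.30 (adjusted p = 0.012). Others among the 15 highest were MRI1 of methionine salvage (responses of 0.25 in ρ0 cells and −1.25 in ρ+ cells), the sedoheptulose bisphosphatase SHB17 (difference 1.49 ± 0.35), the cytosolic asparaginase ASP1 (1.48 ± 0.25), and EFM1, which methylates an elongation factor (1.45 ± 0.31). Each of these 4 fell in ρ+ cells, with a response in ρ0 cells that did not pass the test. TEF4, SUF2 and RKM1 (1.73, 1.39 and 1.39) are also among the 15, and each lost its call without ρ0 without glucose replicate 1, ρ+ without glucose replicate 2, or ρ+ in glucose replicate 1 or 2, and without other single arrays.

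SNR74 gave 50.3, 58.9 and 47.4 without glucose and 24.3, 14.8 and 21.2 in glucose in ρ0 cells, against 16.5, 9.23 and 12.9 without glucose and 20.6, 20.6 and 22.2 in glucose in ρ+ cells, and the ρ0 arrays without glucose were the 3 highest (difference 2.02 ± 0.30, adjusted p = 7.0e-04). SNR128 gave 1.76 ± 0.32 (adjusted p = 0.00308), and the 5S ribosomal RNA gene RDN5-3, whose probe set is shared with its copies, 1.42 ± 0.32 (adjusted p = 0.0118). Small RNA genes went both ways: SNR11, SUF1 and SUP51 had a lower response in ρ0 cells, held in all 25 alternatives. They were picked after their calls were seen. These RNAs carry no stable poly(A) tail and were measured after poly(A) selection. The mean log2 signal of the ribosomal RNA control probe sets was 8.86, 7.82 and 8.38 in ρ0 cells without glucose, 7.53, 7.91 and 7.14 in ρ0 cells in glucose, 8.61, 8.50 and 8.71 in ρ+ cells without glucose, and 7.60, 7.17 and 7.08 in ρ+ cells in glucose. It was higher without glucose in ρ+ cells too, where SNR74 and SNR128 fell, and its part in these results was not tested.

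By group, 4 of 104 ribosome biogenesis genes (3.85%, against 1.57% of all genes) had a higher response in ρ0 cells and none a lower one. The median difference was 0.42, and 0.16 with poly-A scaling. In ρ0 cells 5 rose and 5 fell, and in ρ+ cells 1 rose and 40 fell. The 40 falls of ρ+ cells were 13 with arrays centred on their median and 6 with arrays scaled to the poly-A controls, and the 4 were 7 without ρ0 in glucose replicate 3, 0 with poly-A scaling and 9 or 10 with a replicate block. Members were NOP1, the methyltransferase of box C/D particles (0.90 ± 0.20, adjusted p = 0.013), and RRP9, a protein of the U3 particle (0.99 ± 0.23, adjusted p = 0.0152). Of 26 ergosterol synthesis genes, 2 rose and 0 fell in ρ0 cells, 1 rose and 11 fell in ρ+ cells, and no difference was called in either direction. Their median difference was 0.45, and 0.19 with poly-A scaling. The 11 falls in ρ+ cells were 9 with quantile normalisation, 4 with median centring and 3 with poly-A scaling. Of 32 genes of DNA replication and histones, 3 were higher (9.38%, against 1.57% of all genes). That count was between 0 and 1 without ρ0 without glucose replicate 1, ρ0 in glucose replicate 1, ρ+ without glucose replicate 2 or ρ+ in glucose replicate 1 or 2. Scaling arrays to the poly-A controls moved the median difference of all genes to −0.17, against 0.09 as deposited. The split then was 256 genes lower and 3 higher, and the 3 were SNR74 (1.76, adjusted p = 0.0115), PAN3 (1.52, 0.0213) and SNR128 (1.51, 0.0299).

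A like response, called in the same direction in both strains with a 95% interval of the difference within −1 and 1, was found for 315 genes (5.88%), of which 47 rose and 268 fell. The count depends on single arrays: it was 194 without ρ0 without glucose replicate 1, 184 without ρ0 in glucose replicate 3, 208 without ρ+ without glucose replicate 1, 186 without ρ+ in glucose replicate 2 and 204 without ρ+ in glucose replicate 3. It also depends on scaling. The split into rises and falls was 70 and 178 after quantile normalisation, 103 and 107 after median centring and 17 and 58 with poly-A scaling. HXT7, a high-affinity glucose transporter whose probe set is shared with close relatives, gave 1196, 1004 and 1152 without glucose and 326, 683 and 315 in glucose in ρ0 cells, against 1749.6, 2135 and 2322 without glucose and 997, 660.0 and 1009 in glucose in ρ+ cells. In each strain all arrays without glucose lay above those in glucose. It rose by 1.43 in ρ0 cells and 1.23 in ρ+ cells, with a difference of 0.20 ± 0.36 (95% interval −0.56 to 0.95), and it was lower in ρ0 cells in both media. ZWF1, the first enzyme of the pentose phosphate pathway, rose by 1.02 in ρ0 cells and 1.06 in ρ+ cells (95% interval of the difference −0.73 to 0.65), and DPS1, the cytosolic aspartyl-tRNA synthetase, by 0.85 and 1.03 in that order of strains (−0.85 to 0.50).

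Falls were also shared. RPC25, a subunit of RNA polymerase III, averaged 17.2 ± 3.01 without glucose and 54.5 ± 12.9 in glucose in ρ0 cells, and 18.4 ± 2.20 without glucose and 58.2 ± 6.21 in glucose in ρ+ cells. It fell by 1.57 in ρ0 cells and by 1.58 in ρ+ cells, and the 95% interval of the difference was −0.58 to 0.60. MSR1, the mitochondrial arginyl-tRNA synthetase, fell by 1.43 in ρ0 cells and by 1.61 in ρ+ cells (−0.39 to 0.74), and YLR297W, a gene of unknown role, by 1.80 in ρ0 cells and by 1.94 in ρ+ cells (−0.61 to 0.88). Of 80 cytosolic ribosomal protein genes, 14 fell in ρ0 cells and 33 in ρ+ cells, 10 of them alike. The differences of 68 had an interval within −1 and 1, and 1, RPS7B, had a higher response in ρ0 cells (0.95 ± 0.20, adjusted p = 0.00905). Under median centring 13 and under poly-A scaling 5 of the 80 fell in ρ+ cells, and their median difference of 0.10 became −0.16 with poly-A scaling. Across all genes, 2481 (46.3%) had a difference that was not called and an interval within −1 and 1.

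**Figure D4:**
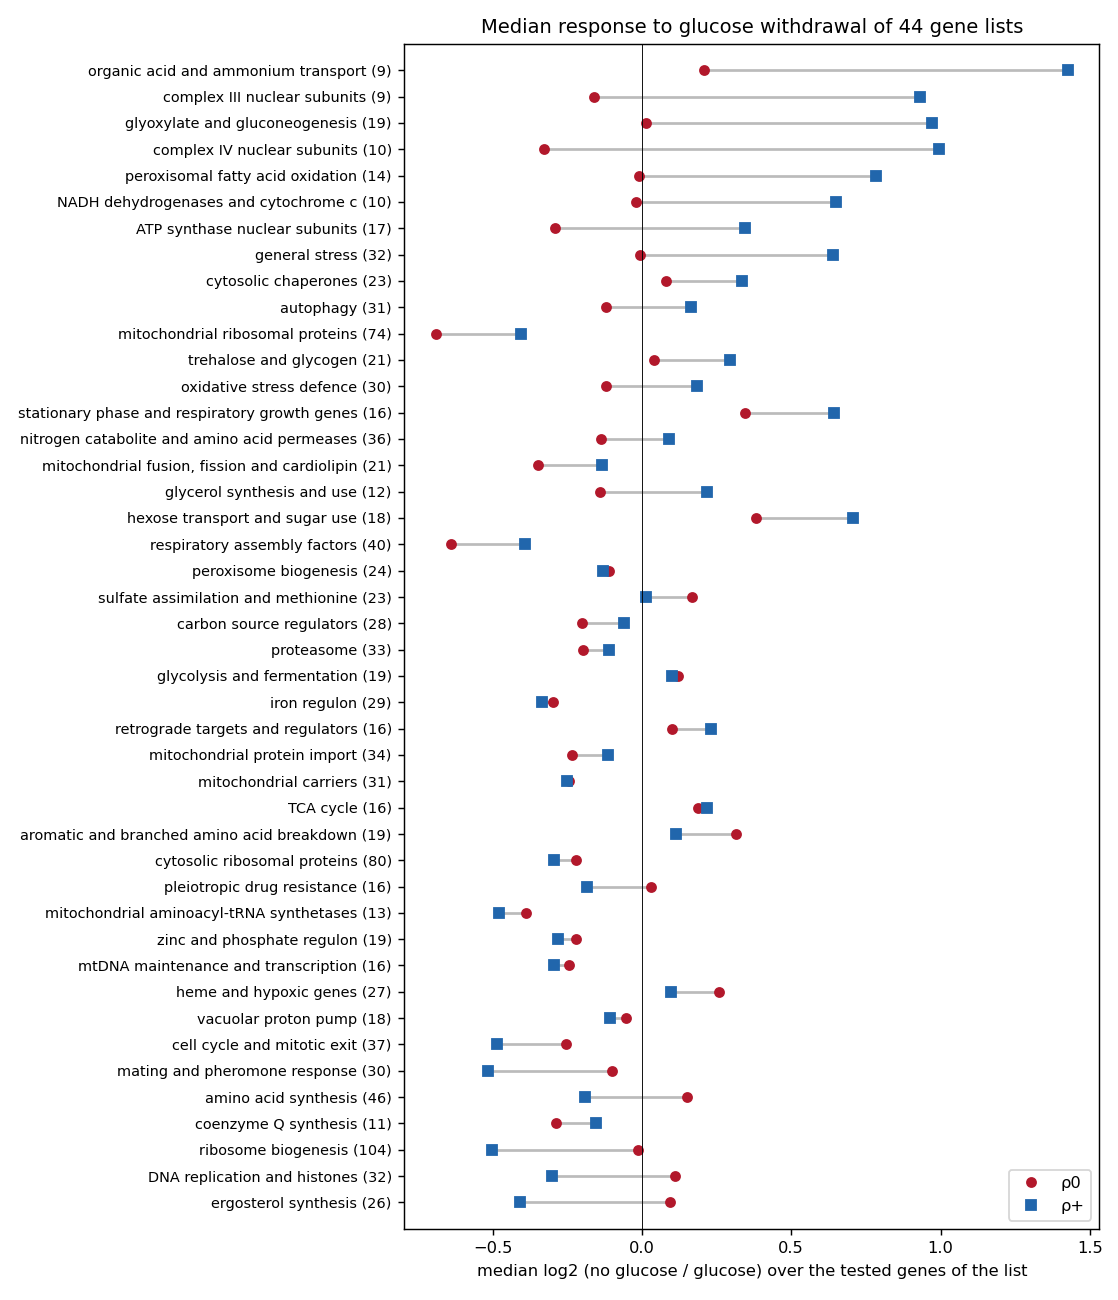
Median log2 response to glucose withdrawal in ρ0 cells (red circles) and in ρ+ cells (blue squares) over the tested genes of 44 gene lists, ordered by the median difference. The median difference is −1.53 for organic acid and ammonium transport, a value that depends on the pseudocount, and −1.33 for complex III.

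**Figure D5:**
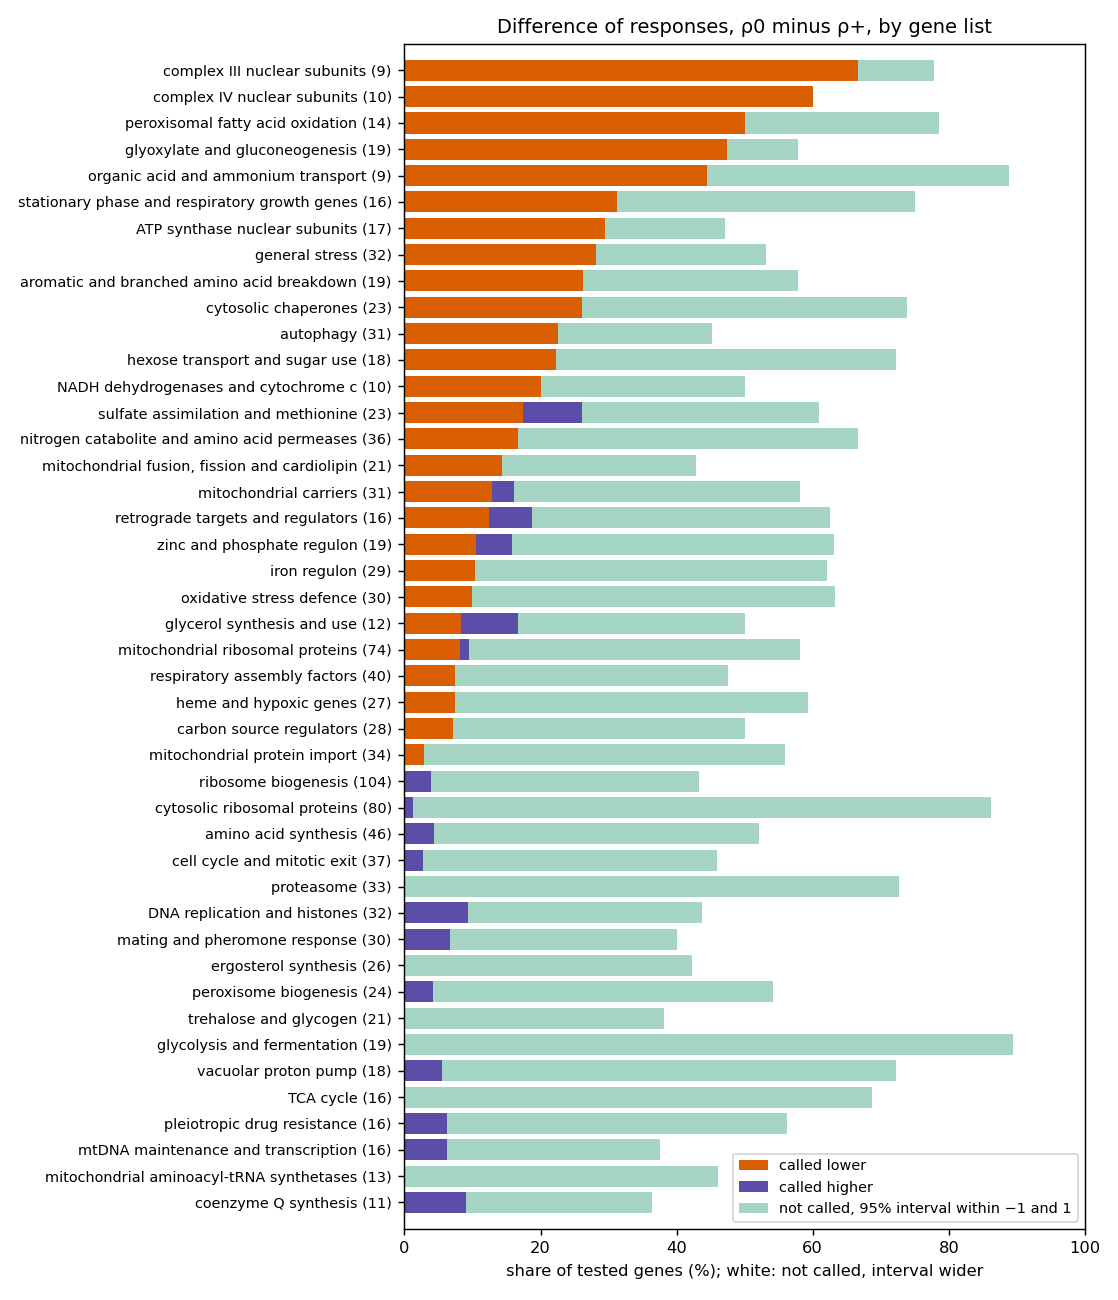
Share of the tested genes of each of 44 lists (percent, x axis) whose difference of responses was called lower in ρ0 cells, called higher, or not called with a 95% interval within −1 and 1. Complex III (6 of 9 lower) and complex IV (6 of 10 lower) stand at one end, and glycolysis (17 of 19 within −1 and 1) and the cytosolic ribosomal proteins (68 of 80) hold the widest shares within −1 and 1.

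The drug resistance and metal uptake markers PDR5, PDR15, FIT3 and ZRT1 differed between the strains in both media, while the differences of their responses did not pass the test. PDR5, a multidrug transporter induced in ρ0 cells, averaged 1880.1 ± 90.6 without glucose and 1906 ± 395 in glucose in ρ0 cells, against 639 ± 79.6 without glucose and 714 ± 74.1 in glucose in ρ+ cells. It was higher in ρ0 cells in both media, and the difference of the responses was 0.16 ± 0.23 (95% interval −0.33 to 0.66). PDR15, a related transporter, was higher by 2.67 without glucose and by 2.97 in glucose (difference −0.30, −1.29 to 0.69), and FIT3, a cell wall protein of iron uptake, by 2.62 and 2.73 in the same media (difference −0.11, −1.24 to 1.02). ZRT1, the high-affinity zinc transporter, was lower in ρ0 cells in both media, by 3.34 in glucose, with a difference of −0.16 (−0.71 to 0.40). In the lists, 1 of 16 drug resistance genes (6.25%) had a higher response in ρ0 cells, against 1.57% of all genes. In the iron regulon 3 of 29 genes (10.3%) had a lower one, against 5.35% of all genes. Of 19 genes of the zinc and phosphate regulon, 2 had a lower response in ρ0 cells and 1 a higher one. CIT2, the peroxisomal citrate synthase and standard reporter of the retrograde pathway, gave a difference of −0.33 ± 0.36 that did not pass the test (adjusted p = 0.624, 95% interval −1.08 to 0.43).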

How the data were processed

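Gene expression was measured on 12 one-colour Affymetrix yeast arrays, 3 per group, grouped by the sample titles. Values in the deposited table are linear intensities, 1 for each probe set on each array; the submitters' processing notes name MAS5 as the software. Which version and which scaling target it ran with is not given in the sources used here. Arrays shared a trimmed mean of 100.1, so the table had been scaled per array. The number of arrays limits the precision.

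Of 9335 probe sets, 60 controls were set aside, 6504 named a single gene, 328 named several and the others were unnamed here; symbols came from the platform annotation and a RefSeq table. Each of 5656 genes was represented by its brightest probe set on average. A gene was tested when the mean of at least 1 group passed the detection level, the 25th percentile of all signals (5.822). Signals were analysed as log2(signal + 1.498), the pseudocount being the 10th percentile, so fold changes of low genes are understated. A means model of the 4 groups was fitted with limma 3.58.1 in R 4.3.3 (lmFit, contrasts.fit, eBayes with a variance trend, 8 residual degrees of freedom), and p-values were adjusted by Benjamini-Hochberg over the 5361 genes. On simulated data the fit recovered 30% of 2-fold and 98% of 4-fold differences of the responses, with 5 false calls among 5161 unchanged genes. Many 2-fold differences can therefore go uncalled.

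Genes were named from a set given by rule: the 15 lowest and 15 highest called differences, up to 4 called members of each list with the largest differences, the 10 highest and 5 lowest mean responses among like genes, and a fixed set of markers. All of the 30 extreme genes are named; which of the other genes of the set are named was chosen after their values were seen, and genes outside it are marked in the text. The 44 lists, the markers and the comparison were chosen with earlier results of these data known. Labels call the replicates biological and say that cultures were split, but not which cultures the numbers mark. Deviations from the group means of same-numbered arrays correlated at 0, 0.16 and 0.52 in ρ0 cells and at 0.025, −0.025 and 0.107 in ρ+ cells, so the numbers were not taken to pair arrays. Alternatives were other pseudocounts, filters, scalings, probe set choices and variance models, a replicate block, and each array left out.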

Additional observations from a re-analysis of the deposited data

Results flagged for a closer look

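The response to withdrawal differed between ρ0 and ρ+ cells, by the limma test of the difference itself, for 287 genes that were lower and 84 that were higher in ρ0 cells. In 32 genes withdrawal moved the signal in opposite directions in the 2 strains, each direction and the difference passing the test with signals as deposited. Some directions lay near the threshold, as the fall in ρ0 cells of ICL1 (adjusted p = 0.0444) and RTG1 (0.0416). The glyoxylate and the retrograde list each had 1 fall in ρ0 cells as deposited. Each had 0 with quantile normalisation, median centring or poly-A scaling. Among the genes named here, the difference of the log2 responses, ρ0 minus ρ+, was −3.64 for the ammonium permease gene MEP2, −2.29 for the mitochondrial iron carrier gene MRS4, −2.27 for the isocitrate lyase gene ICL1, −1.89 for COX5B, −1.80 for ATP17, −1.80 for RTG1 and −1.10 for ATP18, all of which fell in ρ0 cells and rose in ρ+ cells. It was 2.02 for SNR74 and 1.76 for SNR128, which rose in ρ0 cells and fell in ρ+ cells.

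Calls were also found among probe sets without a gene in the annotation used here. Of 1241 such probe sets above detection, 53 (4.27%) had a lower and 2 (0.161%) a higher response in ρ0 cells. The shares were 4.4% lower and 1.04% higher among single-gene probe sets, tested probe set by probe set.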

How the results depend on the processing

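The count of lower differences, 287, stayed between 198 and 328 when single arrays were left out and between 256 and 360 under the other settings. The count of higher differences, 84, was 3 with poly-A scaling (lower to higher 256 to 3, against 293 to 74 with quantile normalisation and 315 to 63 with median centring), 152 with a replicate block by culture, 160 with a replicate block by number, and 32 to 134 without single arrays. The count of genes called in ρ0 cells, 912, was 474 with poly-A scaling and 471 to 1125 without single arrays; that in ρ+ cells, 1754, was 726 and 1154 to 1988. Rises to falls were 61 to 413 in ρ0 cells and 439 to 287 in ρ+ cells with poly-A scaling, 444 to 382 and 807 to 548 with median centring, and 351 to 493 and 646 to 759 with quantile normalisation, against 246 to 666 and 561 to 1193 as deposited. The 315 like responses were 75 with poly-A scaling and 184 to 376 without single arrays. The block moved the lower count to 360 or 358; of the same genes, 281 or 287 lower and 75 or 84 higher calls were kept. The cause of these shifts was not tested. No called difference of a named gene changed sign under any alternative run; 371 of their values lost a call, and 100 values that were not called changed sign. Held in all 25 alternatives were 176 of the lower and 2 of the higher calls. The 2 were the small nucleolar RNA genes SNR74 and SNR128, so no higher call of a protein-coding gene held in all of them. With 3 arrays a group and a median 95% interval 1.28 wide, differences within that width were often unresolved, and signals near detection give only bounds.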
